A study of Arabidopsis thaliana with 8 samples.

Results

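The interaction of *hot3-2* with *dcl2 dcl4* was followed gene by gene in ribosome footprints of *Arabidopsis thaliana* inflorescences. All 8 libraries of the series, 2 for each of 4 genotypes, entered the comparison: *hot3-2 dcl2 dcl4*, *dcl2 dcl4*, *hot3-2* and wild type (WT), all on Col-0 and grown under long days without further treatment. For each gene the effect of *hot3-2* in *dcl2 dcl4* plants (*hot3-2 dcl2 dcl4* minus *dcl2 dcl4*) was set against the effect of *hot3-2* in otherwise wild-type plants (*hot3-2* minus WT), and the difference of the 2 effects on the log2 scale is called the interaction. A positive interaction means that *hot3-2* moved footprints on a gene further up, or less far down, in *dcl2 dcl4* plants than in WT. The mutants are T-DNA insertion lines, each locus is represented by 1 allele, and the triple mutant was made by crossing. The labels number the replicates but do not name the plants they came from, so p-values measure only the spread between these libraries. No total RNA library was analysed here, so more mRNA and more ribosomes per mRNA cannot be told apart, nor can a change per cell and a change in the share of a cell type in the inflorescence.

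HOT3 encodes eIF5B1, a GTPase that helps the large ribosomal subunit join at the start codon and takes part in late maturation of the small subunit. DCL2 and DCL4 are Dicer-like endonucleases that process double-stranded RNA to siRNAs (small interfering RNAs), and DCL4 also makes the trans-acting siRNAs that direct cleavage of mRNAs for pentatricopeptide repeat proteins and auxin response factors. The study crossed the mutants because loss of HOT3 was accompanied by siRNAs made from ribosomal RNA, which depend on these Dicers. The gene-level comparison described here asks which mRNAs carried a different *hot3-2* effect once DCL2 and DCL4 were removed.

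Each library held between 1198328 and 2842475 P sites, the inferred codon position of a footprint, on nuclear coding sequences. Of 22384 nuclear genes with footprints, 13303 had enough to be tested. The tissue label was checked against floral organ identity genes. AP3 and PI, which specify petals and stamens, had 188 to 481 and 303 to 1179 coding-sequence counts per library, AP2 and SEP1 to SEP3 had 11 to 156, AG had 0 in every library (its footprints lay upstream of the annotated coding sequence) and AP1 was not among the genes listed. HOT3 had 50 and 39 counts in *hot3-2 dcl2 dcl4*, 306 and 339 in *dcl2 dcl4*, 74 and 69 in *hot3-2*, and 284 and 370 in WT, so both genotypes labelled *hot3-2* were far below the others. Its own interaction was -0.57 ± 0.33 (SE, adjusted p = 0.605). AT1G21160, a close relative of HOT3 that also encodes an eIF5B, had 158 and 140 counts in *hot3-2 dcl2 dcl4*, 17 and 13 in *dcl2 dcl4*, 262 and 143 in *hot3-2*, and 22 and 13 in WT. Its *hot3-2* effect was 4.00 in *dcl2 dcl4* and 4.11 in WT plants, with an interaction of -0.11 ± 0.56 (adjusted p = 0.971). RDR1, an RNA-dependent RNA polymerase that supplies double-stranded RNA to Dicers, had an interaction of -0.07 ± 0.31 (adjusted p = 0.969). DCL2 and DCL4 themselves had at most 3 and 10 counts in any library, so they were not tested and say nothing about the Dicer labels.

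At an adjusted p under 0.05 (limma voom, Benjamini-Hochberg over 13303 genes), 146 genes, 1.1% of those tested, had an interaction. It was positive for 44 of them (0.331%) and negative for 102 (0.767%). At an unadjusted p under 0.05 there were 1311 genes. The positive values ran between 0.18 and 1.99 and the negative ones between -0.20 and -2.43, while the median over all genes tested was 0.02. For 145 of the 146 genes the sign was the same in all 16 combinations of 1 library per genotype. The genes were chosen by p-values from these same libraries, so this agreement was largely fixed by the choice and adds no support. The calls moved with single libraries: 92 genes were called without *dcl2 dcl4* replicate 1 and 93 without *hot3-2 dcl2 dcl4* replicate 1. The positive set alone was down to 20, 24 and 26 genes without *dcl2 dcl4* replicate 1, *dcl2 dcl4* replicate 2 and *hot3-2 dcl2 dcl4* replicate 1. The negative set alone was down to 58 genes without *hot3-2 dcl2 dcl4* replicate 2.

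The *hot3-2* effect alone was called for many more genes than its interaction. Between *hot3-2 dcl2 dcl4* and *dcl2 dcl4* it was called for 1187 genes (8.92%), of which 572 (4.3%) were higher and 615 (4.62%) lower. In *hot3-2* against WT, 1921 genes (14.4%) were called, 976 (7.34%) higher and 945 (7.1%) lower. Fewer genes were called for removal of the Dicers. *hot3-2 dcl2 dcl4* against *hot3-2* gave 225 calls (1.69%), 69 higher (0.519%) and 156 lower (1.17%). *dcl2 dcl4* against WT gave 722 (5.43%), 307 higher (2.31%) and 415 lower (3.12%). The numbers of calls also depend on precision. An interaction has a larger SE than either effect (for LHCB3 0.065 beside 0.047 in *dcl2 dcl4* and 0.045 in WT plants), and the triple mutant libraries were the shallowest. These comparisons share libraries with the interaction and with each other, so they describe its shape and do not add support to it.

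The shapes of the 2 sets are given as a description. Among the 44 genes with a positive interaction, 40 had a fitted *hot3-2* effect below 0 in WT plants, and the median effect was 0.09 in *dcl2 dcl4* and -0.61 in WT plants. The sign of the effect was reversed between the backgrounds for 20 of them, its size was reduced in *dcl2 dcl4* for 20 and enlarged for 4. Over all genes tested with an interaction above 0, called or not, the same split was 2469 reversed, 2183 reduced and 2188 enlarged. Among the 102 genes with a negative interaction, 76 had an effect below 0 in *dcl2 dcl4* and 89 an effect above 0 in WT plants, with medians of -0.36 and 0.39. The sign was reversed for 63, the size reduced for 26 and enlarged for 13, beside 2310, 2152 and 2001 of all genes with an interaction below 0. Opposite effects in the 2 sets follow in part from choosing genes by the interaction. For 19 of the 146 genes both effects were called and pointed in opposite directions, among them NIR1, VSP1, SYP32, DDB1A and SLY2.

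**Figure D1:**
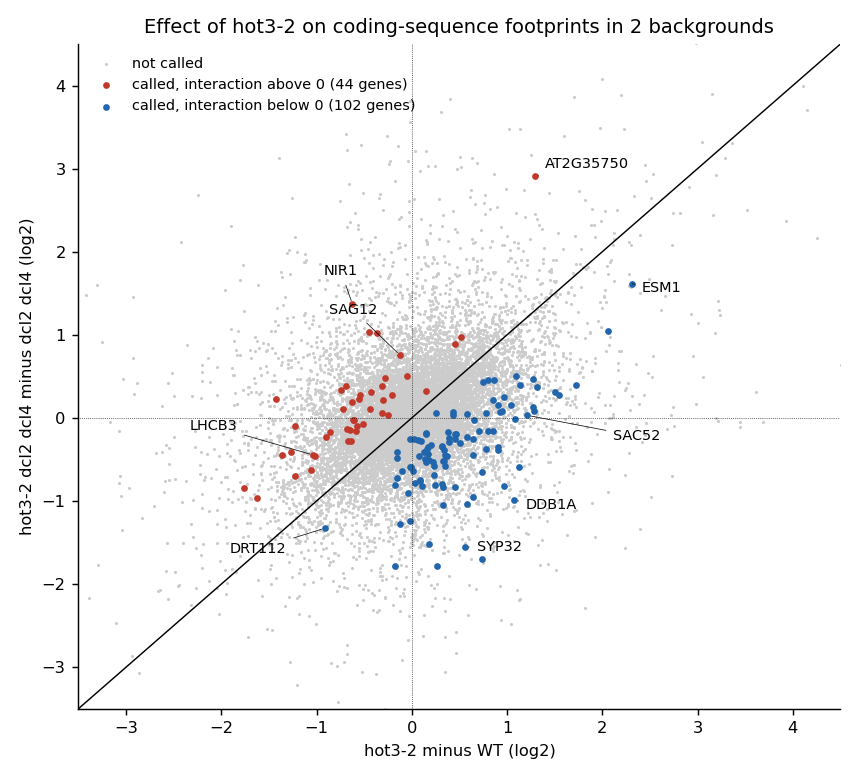
Effect of *hot3-2* on coding-sequence footprints of each gene in *dcl2 dcl4* plants (vertical axis, *hot3-2 dcl2 dcl4* minus *dcl2 dcl4*, log2) and in otherwise wild-type plants (horizontal axis, *hot3-2* minus WT, log2), 1 point per gene. Coloured points are the 44 genes with a positive and the 102 with a negative interaction, which lie above and below the diagonal by construction, and 32 of the genes tested fall outside the axes, none of them called.

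Light-harvesting antenna proteins, which bind chlorophyll and pass excitation energy to the photosystems, were prominent among the genes with a positive interaction. Levels are given in CPM, P sites per 1000000 coding-sequence P sites after scaling. LHCB3, a subunit of the trimeric antenna of photosystem II, had 2603 and 2580 in *hot3-2 dcl2 dcl4*, 3490 and 3569 in *dcl2 dcl4*, 1816 and 1871 in *hot3-2*, and 3770 and 3770 in WT. Both *hot3-2* genotypes were lower than their partners without overlap, and the gap was smaller in *dcl2 dcl4* plants. The effect of *hot3-2* was -0.45 in *dcl2 dcl4* and -1.03 in WT plants, and the interaction was 0.59 ± 0.07 (SE, adjusted p = 3.51e-10).

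The LHCB2 genes encode another subunit of the same trimers, one that is phosphorylated when the antenna is redistributed between photosystems. LHCB2.1 had 533 and 507 CPM in *hot3-2 dcl2 dcl4*, 662 and 717 in *dcl2 dcl4*, 296 and 357 in *hot3-2*, and 749 and 809 in WT (interaction 0.86 ± 0.13, adjusted p = 5.4e-06). LHCB2.2 had 1310 and 1361 in *hot3-2 dcl2 dcl4*, 1566 and 1558 in *dcl2 dcl4*, 790 and 859 in *hot3-2*, and 1478 and 1594 in WT (0.68 ± 0.09). In both genes the *hot3-2* libraries alone stood far below the other 6. LHCB2.1 and LHCB2.2 shared 38.7% and 45.9% of their 28 nt coding windows with other genes, mainly each other, so their counts are not fully separate. LHCB2.3 shared 1.8% and had an interaction of 0.69 ± 0.13.

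LHCB4.1, a minor antenna protein that links the trimers to the photosystem II core, had 1756 and 1828 CPM in *hot3-2 dcl2 dcl4*, 1847 and 1919 in *dcl2 dcl4*, 1564 and 1652 in *hot3-2*, and 2285 and 2295 in WT (0.44 ± 0.08). Its *hot3-2* effect was called in WT plants (-0.52) and not in *dcl2 dcl4* plants (-0.07). LHCA4, of the photosystem I antenna, CAB1, a further LHCII gene, and PSAD-1 and PSAL, subunits of photosystem I, were also called. So was PSBW, a small subunit of photosystem II, and these interactions lay between 0.29 and 0.55. CAB1 shared 53.2% of its 28 nt windows with other genes (39.8% with AT1G29920), so its counts are not fully separate. Over the whole list of nuclear photosynthesis genes, 10 of 66 tested were called positive and 0 negative, beside 0.331% and 0.767% of all genes. Genes called positive had a median count of 1127 per library, beside 39.1 for all genes tested, so these shares are not matched for depth. The interaction was above 0 for 49 of the 66, and the 27 at an unadjusted p under 0.05 were all above 0. The list median was 0.19 beside 0.02 for all genes, with a median *hot3-2* effect of -0.26 in *dcl2 dcl4* and -0.47 in WT plants. Summed over the list, the level was 52956 and 53744 CPM in *hot3-2 dcl2 dcl4*, 60013 and 61270 in *dcl2 dcl4*, 46500 and 49734 in *hot3-2*, and 65340 and 62897 in WT.

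Outside that list, FED A, a ferredoxin that takes electrons from photosystem I, and GAPA, a subunit of the chloroplast dehydrogenase of the Calvin cycle, had interactions of 0.56 ± 0.12 and 0.47 ± 0.11. Not every photosynthesis gene moved that way. DRT112, a plastocyanin that carries electrons to photosystem I, and PSBO1, of the oxygen-evolving complex, are not matched by the list and had interactions of -0.42 ± 0.08 and -0.33 ± 0.06. DRT112 had 2066 and 1992 CPM in *hot3-2 dcl2 dcl4*, 4933 and 5234 in *dcl2 dcl4*, 2237 and 2880 in *hot3-2*, and 4937 and 4447 in WT. Both negative calls were lost without the leading window described further on. DRT112, with 67.2% of its P sites there, turned to 0.23 (adjusted p = 0.399). PSBO1, with 55.6%, had -0.20 (adjusted p = 0.12). Positive calls lost in the same way were FED A (0.37, adjusted p = 0.124), LHCA4 (0.29, adjusted p = 0.124), PSBW (0.27, adjusted p = 0.53) and PSAL (0.22, adjusted p = 0.36). LHCB3, LHCB2.1, LHCB2.2, LHCB2.3, LHCB4.1, CAB1, PSAD-1 and GAPA kept theirs.

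NIR1, the plastid nitrite reductase that turns nitrite into ammonium, had the largest positive interaction, 1.99 ± 0.28 (adjusted p = 7.5e-07). It had 150 and 110 CPM in *hot3-2 dcl2 dcl4*, 50.6 and 48.3 in *dcl2 dcl4*, 45.5 and 57.2 in *hot3-2*, and 81.9 and 73.4 in WT. The triple mutant stood above the other 6 libraries, and the effect of *hot3-2* was 1.37 in *dcl2 dcl4* and -0.62 in WT plants, both called. SAG12, a cysteine protease of senescing tissue, had 227 and 264 in *hot3-2 dcl2 dcl4*, 151 and 140 in *dcl2 dcl4*, 826 and 757 in *hot3-2*, and 870 and 859 in WT. Its 2 genotypes with *dcl2 dcl4* were far below those without it, and only within *dcl2 dcl4* was the *hot3-2* effect called (0.75 against -0.12). The interaction was 0.88 ± 0.15 (adjusted p = 1.3e-04).

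Among the other large positive interactions, AT2G35750, an uncharacterized gene, had 319 and 299 CPM in *hot3-2 dcl2 dcl4*, 33.7 and 49.2 in *dcl2 dcl4*, 239 and 208 in *hot3-2*, and 91.0 and 92.2 in WT. It rose in both backgrounds, by 2.91 in *dcl2 dcl4* and 1.29 in WT plants (interaction 1.61 ± 0.24). AT5G62720, annotated as an integral membrane protein, had 73.5 and 69.8 in *hot3-2 dcl2 dcl4* and 32.7 to 59.0 in the other 6 libraries (1.49 ± 0.33). PRE1, a small helix-loop-helix protein that promotes cell elongation, had an interaction of 1.38 ± 0.37 (adjusted p = 0.036). GLP8, a germin-like protein, had one of 1.08 ± 0.30 (adjusted p = 0.049). PRE1 and GLP8 were not called without the leading window described further on. CYP71B31, a cytochrome P450, had 287 and 264 in *hot3-2 dcl2 dcl4*, 223 and 249 in *dcl2 dcl4*, 126 and 150 in *hot3-2*, and 207 and 194 in WT (0.78 ± 0.18). XTH24, a xyloglucan-modifying enzyme of the cell wall, had 571 and 454 in *hot3-2 dcl2 dcl4*, 370 and 349 in *dcl2 dcl4*, 487 and 439 in *hot3-2*, and 487 and 473 in WT (0.55 ± 0.14). XTH24 also lost its call without that window.

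Several genes annotated to the anther or to pollen-type cell wall families had positive interactions. AT4G20420, annotated as tapetum specific, had 34.7 and 23.8 CPM in *hot3-2 dcl2 dcl4*, 24.3 and 24.6 in *dcl2 dcl4*, 15.0 and 16.0 in *hot3-2*, and 43.9 and 39.8 in WT (1.65 ± 0.45, adjusted p = 0.041). This call was lost in 13 of the 21 alternative fits, with values between 1.07 and 2.19 and adjusted p between 0.024 and 0.54 over all of them. GRP20, an oleosin-domain protein of the pollen coat, had 99.1 and 98.3 in *hot3-2 dcl2 dcl4*, 167 and 188 in *dcl2 dcl4*, 72.0 and 73.9 in *hot3-2*, and 225 and 273 in WT (0.92 ± 0.23). Its *hot3-2* effect was called below 0 in both backgrounds, -0.84 in *dcl2 dcl4* and -1.76 in WT plants. GPAT1, an acyltransferase required for tapetum development, had an interaction of 1.07 ± 0.29 (adjusted p = 0.035). AT5G15110, a pectate lyase (1.13 ± 0.31, adjusted p = 0.042), and AT1G29140, of the Ole e 1 pollen allergen family (0.91 ± 0.23), were called as well. So were AT3G14040 (0.82 ± 0.16), AT5G07410 (0.76 ± 0.17) and AT3G07850 (0.59 ± 0.14), of the pectin lyase-like superfamily that holds pollen polygalacturonases. Without the leading window described further on, AT3G14040 alone of these anther and cell wall genes stayed called. AT5G07410 then had 0.65 (adjusted p = 0.063) and AT3G07850 had 0.50 (adjusted p = 0.097). AT3G14040 and AT3G07850 shared 51.2% and 51.1% of their 28 nt windows, all with each other. Of the pectin methylesterase and polygalacturonase list, 3 of 128 genes tested were called positive and 0 negative, with a median of 0.19, and of the late pollen list 1 of 6 (AT3G07850) and 0, with a median of 0.33, beside 0.331% and 0.767% of all genes.

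Summed levels of the anther lists are given as a description, without a test. Summed over 12 pollen coat genes the level was 1668 and 1625 CPM in *hot3-2 dcl2 dcl4*, 3179 and 3207 in *dcl2 dcl4*, 1585 and 1700 in *hot3-2*, and 4002 and 4298 in WT. The 16 tapetum and exine genes listed summed to 851 and 791 in *hot3-2 dcl2 dcl4*, 1336 and 1367 in *dcl2 dcl4*, 699 and 713 in *hot3-2*, and 1339 and 1394 in WT. Of the 12 pollen coat genes tested, 1 was called positive (beside 0.331% of all genes), 10 had a value above 0 and the median was 0.36, with a median *hot3-2* effect of -0.85 in *dcl2 dcl4* and -1.36 in WT plants. Of 14 tapetum and exine genes tested, none was called, 2 had an unadjusted p under 0.05 (ACOS5, 0.52, and LAP6, 0.52, both enzymes of sporopollenin synthesis), 11 had a value above 0 and the median was 0.31. Late pollen genes, which mark mature pollen, summed to 609 and 684 in *hot3-2 dcl2 dcl4*, 651 and 640 in *dcl2 dcl4*, 822 and 956 in *hot3-2*, and 1175 and 1148 in WT, and seed storage genes to at most 5.9 in any library. The part of a different makeup of the inflorescences in these interactions was not tested.

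**Figure D2:**
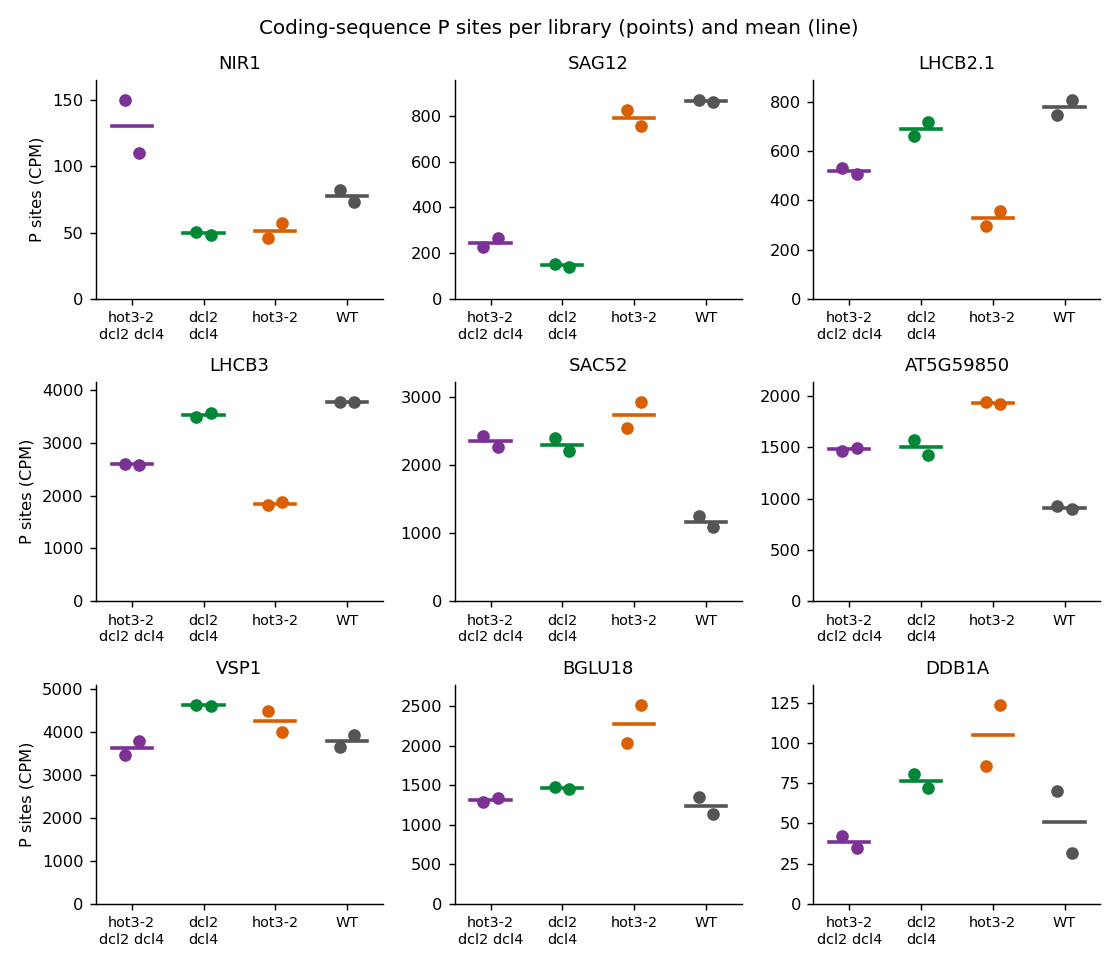
Coding-sequence P sites (CPM) in each library for 9 genes, with *hot3-2 dcl2 dcl4*, *dcl2 dcl4*, *hot3-2* and WT along the horizontal axis, points for the 2 libraries and a bar at their mean. NIR1 was highest in the triple mutant (150 and 110), LHCB2.1 and LHCB3 were lowest in *hot3-2*, and SAC52 and AT5G59850 were lower in WT (1248 and 1091, 925 and 900) than in all other libraries.

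Ribosomal protein genes were among the negative interactions with the smallest p-values. SAC52, which encodes the large-subunit protein RPL10A, had 2430 and 2274 CPM in *hot3-2 dcl2 dcl4*, 2394 and 2210 in *dcl2 dcl4*, 2555 and 2929 in *hot3-2*, and 1248 and 1091 in WT. WT stood apart below the other 6 libraries, and the *hot3-2* effect was 0.03 in *dcl2 dcl4* and 1.21 in WT plants (interaction -1.18 ± 0.08, adjusted p = 1.57e-19). SAG24, a near relative of SAC52, had an interaction of -1.20 ± 0.08. AT5G59850, of the small-subunit S8 family, had 1466 and 1498 in *hot3-2 dcl2 dcl4*, 1571 and 1430 in *dcl2 dcl4*, 1941 and 1919 in *hot3-2*, and 925 and 900 in WT (-1.10 ± 0.09). PGY2, a large-subunit L9 protein that affects leaf polarity, had 841 and 1059 in *hot3-2 dcl2 dcl4*, 943 and 854 in *dcl2 dcl4*, 1407 and 1344 in *hot3-2*, and 856 and 592 in WT (-0.87 ± 0.12).

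Over all genes matched as ribosomal proteins, 2 of 278 tested were called positive and 12 negative, beside 0.331% and 0.767% of all genes. Genes called negative had a median count of 724 per library, beside 39.1 for all genes tested, so these shares are not matched for depth. The list as a whole sat near 0: 129 had an interaction above 0, and the median was -0.03, with a median *hot3-2* effect of 0.40 in *dcl2 dcl4* and 0.48 in WT plants. Several of the calls came from near-identical copies. AT1G58684, AT1G58983 and AT1G59359 shared 100% of their 28 nt windows, XW6 shared 58.2% with them, and AT1G33120 shared 83.9% with PGY2. The 2 positive members were AT3G24830, of the L13 family (0.46 ± 0.12), and AT5G02960, of the S12/S23 family (0.52 ± 0.12), which without their leading windows had 0.42 (adjusted p = 0.079) and -0.05 (adjusted p = 0.966).

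In many of the genes with a negative interaction, footprints that began within 1 short window carried much of the count. The leading footprint of a gene was the one sequenced most often, and the share of P sites whose footprints began within 15 nt of its 5′ end was its leading share. The median leading share was 29.8% for genes with a positive and 53.3% for genes with a negative interaction, beside 23.0% for all genes tested and 24.3% for the 719 genes with a mean of at least 500 counts per library. The leading share was over 50% for 10 of the 44 positive and 59 of the 102 negative genes, beside 1756 of 13303 (13.2%). The leading footprint by itself held over 50% of the P sites in 0 of the 44 and 5 of the 102. The leading footprint was 28 nt long in 100 of the 146 genes and at most 24 nt in 29, of which 27 had a negative interaction.

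The sequences below show the leading footprints in the windows that carry the main negative calls. They were read from the reference with the TAIR10 nuclear sequence. The footprint is in capitals and the coding bases that follow it are in lower case. SAC52 lies at chr1:4888845-4888872 (plus strand), AT5G59850 at chr5:24113048-24113075 (minus strand) within its first codons, and SLD1, a sphingolipid desaturase, at chr3:22787518-22787545 (plus strand).
SAC52: CTTTCGTGTGCTGGAGCTGATAGGCTTCag
AT5G59850: ATCAGTGTGCTTAACGATGCTCTTAAGAgt
SLD1: GAAGACAGCAGCTTATCAAGCTAGAGACgt
The 28 nt of SAC52 occur unchanged in SAG24 at chr1:24839914-24839941, so footprints there cannot be assigned to either gene.

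This footprint was read 965 and 967 times on SAC52 in *hot3-2 dcl2 dcl4*, 1888 and 1889 in *dcl2 dcl4*, 2280 and 1991 in *hot3-2*, and 1124 and 766 in WT. Its window held 69.1% of the P sites of the gene in *hot3-2 dcl2 dcl4*, 77.8% in *dcl2 dcl4*, 76.0% in *hot3-2* and 59.3% in WT. When the window was left out of every library, the interaction of SAC52 was 0.00 (adjusted p = 1.0). The interaction without the window was -0.11 for AT5G59850 (adjusted p = 0.86) and 0.08 for SLD1 (adjusted p = 0.92). The remaining footprints of these genes therefore carried no call.

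**Figure D3:**
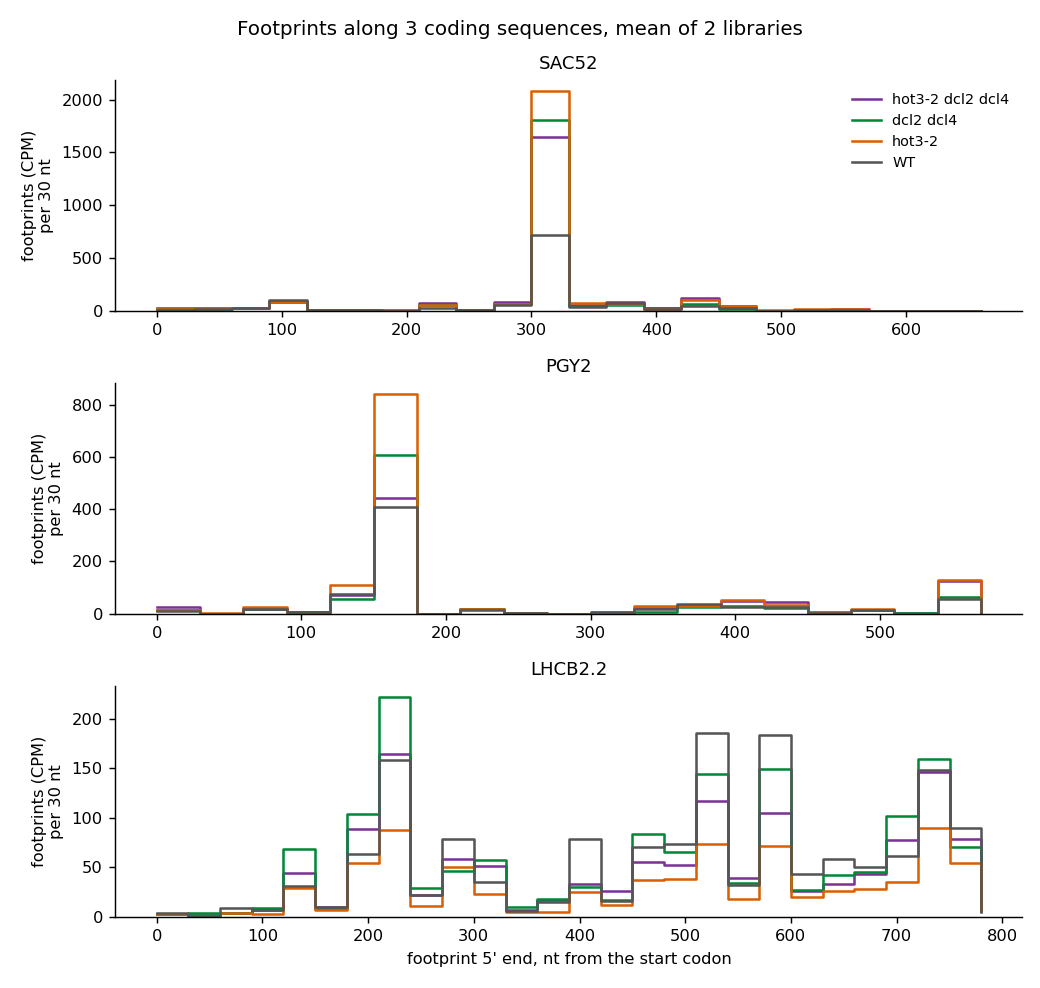
Footprints (CPM) in bins of 30 nt along the coding sequences of SAC52, PGY2 and LHCB2.2, averaged over the 2 libraries of *hot3-2 dcl2 dcl4*, *dcl2 dcl4*, *hot3-2* and WT, with the distance of the footprint's 5′ end from the start codon in nt on the horizontal axis. In SAC52 and PGY2 1 bin held much of the signal, whereas in LHCB2.2 it was spread along the gene, whose leading share was 12.3%.

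The short leading footprints had a sequence feature that the comparison did not use. Of the 29 leading footprints of at most 24 nt, 20 were followed in the coding sequence by AGAT, and all 20 belonged to genes with a negative interaction. None of the 28 nt leading footprints was followed by it. The motif was searched in the 4 coding bases downstream of the footprint on the sense strand, and 0.724% of all coding positions hold it. PGY2 lies at chr1:12023513-12023534 (plus strand), AT5G65220 at chr5:26061493-26061510 (plus strand), SYP32 at chr3:8837787-8837807 (plus strand) and AT3G15900 at chr3:5376532-5376553 (minus strand), shown because all share the motif, with capitals for the footprint.
PGY2: GAGACTGGAAAGAAGAAGCTTAagatcgat
AT5G65220: GCGGAATTGAAAGAGATAagatcgaagacg
SYP32: AAAATTGTGGAGACTCTAAGGagatcgatt
AT3G15900: GAGGACTTAAACTACTTGTTGAagatcgga
The PGY2 footprint also occurs unchanged in AT1G33120.

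Across all genes, footprints of 18 to 20 nt were followed by AGAT in 9.14% and 6.15% of cases in *hot3-2 dcl2 dcl4*, 24.1% and 21.4% in *dcl2 dcl4*, 19.3% and 19.7% in *hot3-2*, and 18.1% and 10.8% in WT. At 28 nt the share was 0.81% to 0.86% in every library. Footprints of at most 25 nt with this feature made up 0.586% and 0.531% of coding P sites in *hot3-2 dcl2 dcl4*, 1.53% and 1.41% in *dcl2 dcl4*, 1.86% and 1.99% in *hot3-2*, and 1.83% and 0.895% in WT. The triple mutant was lowest, and the 2 WT libraries differed by more than those of any other genotype. The same letters open the standard Illumina 3′ adapter, and the part of adapter removal in these counts was not tested. The deposited P-site offset of 20 nt footprints was 9 nt in both *dcl2 dcl4* libraries and *hot3-2 dcl2 dcl4* replicate 1, and 12 nt in the other 5 libraries. At 28 nt it was 12 nt in every library, and the part of this difference in the counts was not tested.

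With those short footprints left out of every gene, 130 genes (0.98% of 13268 tested) had an interaction, 43 positive (0.324%) and 87 negative (0.656%). Of the original 146, 120 were still called, and 22 negative and 4 positive ones were lost. PGY2 then had an interaction of 0.01 and AT1G33120 one of -0.02, against -0.87 and -0.85 with all footprints. AT5G65220, a ribosomal protein of the L29 family, changed to 0.08 from -1.22, and AT3G15900, annotated as a homoserine O-acetyltransferase, to 0.23 from -1.70. SAC52 (-1.21), AT5G59850 (-1.12) and VSP1 (-0.55) kept their calls.

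The largest negative interactions lay in genes of lower level, several of them with this feature. SLY2, an F-box protein of gibberellin signalling, had 12.4 and 6.91 CPM in *hot3-2 dcl2 dcl4*, 30.3 and 31.2 in *dcl2 dcl4*, 38.0 and 41.3 in *hot3-2*, and 24.3 and 23.0 in WT (-2.43 ± 0.53, adjusted p = 3.6e-03). The triple mutant was below and *hot3-2* above the 4 other libraries, but 87% of the P sites lay in the leading window. SYP32, a syntaxin of the Golgi, had 33.0 and 26.9 in *hot3-2 dcl2 dcl4*, 97.3 and 80.0 in *dcl2 dcl4*, 75.5 and 72.5 in *hot3-2*, and 54.7 and 46.1 in WT (-2.11 ± 0.33). Without the short AGAT-followed footprints its interaction was -1.14 and not called.

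DDB1A, an adaptor of CUL4 ubiquitin ligases, had 42.1 and 34.5 CPM in *hot3-2 dcl2 dcl4*, 80.9 and 72.0 in *dcl2 dcl4*, 85.5 and 124 in *hot3-2*, and 69.9 and 31.6 in WT (-2.07 ± 0.35). Its 19 nt leading footprint was read 11 and 8 times in *hot3-2 dcl2 dcl4*, 82 and 92 in *dcl2 dcl4*, 87 and 121 in *hot3-2*, and 104 and 12 in WT, and without its window the interaction was -0.33 and not called. The other large negative values were CYP96A10, a cytochrome P450 (-2.05), EIL3, a transcription factor of the sulphur deficiency response (-1.79), AT4G21570, annotated as an organic solute transporter (-1.71), ASPGA1, an asparaginase (-1.62), AT2G27315, annotated as egg cell-secreted-like (-1.60), AT3G61560, a reticulon (-1.60), AT3G54440, a glycoside hydrolase (-1.39), and maMYB, a membrane-anchored MYB protein (-1.37). Without the leading window AT4G21570 kept about its size (-1.51, adjusted p = 0.069, leading share 17.0%), and it was called when each distinct footprint was counted once per library (-1.70, adjusted p = 0.0057). The others were not called without their windows, with values of -0.36 for CYP96A10, -0.85 for EIL3, -0.71 for ASPGA1, 0.05 for AT3G61560, -0.19 for AT3G54440 and -0.62 for maMYB. AT2G27315, with 98% of its P sites in that window, was then too low to be tested.

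To see which calls rested on more than the leading window, the fit was repeated with that window left out of every gene. Of 11671 genes tested in this way, 64 (0.548%) were called, 26 positive (0.223%) and 38 negative (0.326%). They included 17 of the 44 positive and 21 of the 102 negative genes. The sign was the same for 129 of the 144 called genes that could be tested, and the median interaction was 0.63 for the positive and -0.38 for the negative genes, beside 0.63 and -0.81 with all footprints. Among negative genes with a leading share over 50%, 5 of 59 stayed called, against 16 of 43 with a lower share. When each distinct footprint (the same position and length on a gene) was counted once per library, 18 genes were called, 10 positive and 8 negative, and 11 of them were among the 146. In that fit the median interaction was 0.30 for the positive and -0.22 for the negative genes, so both sets shrank.

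**Figure D4:**
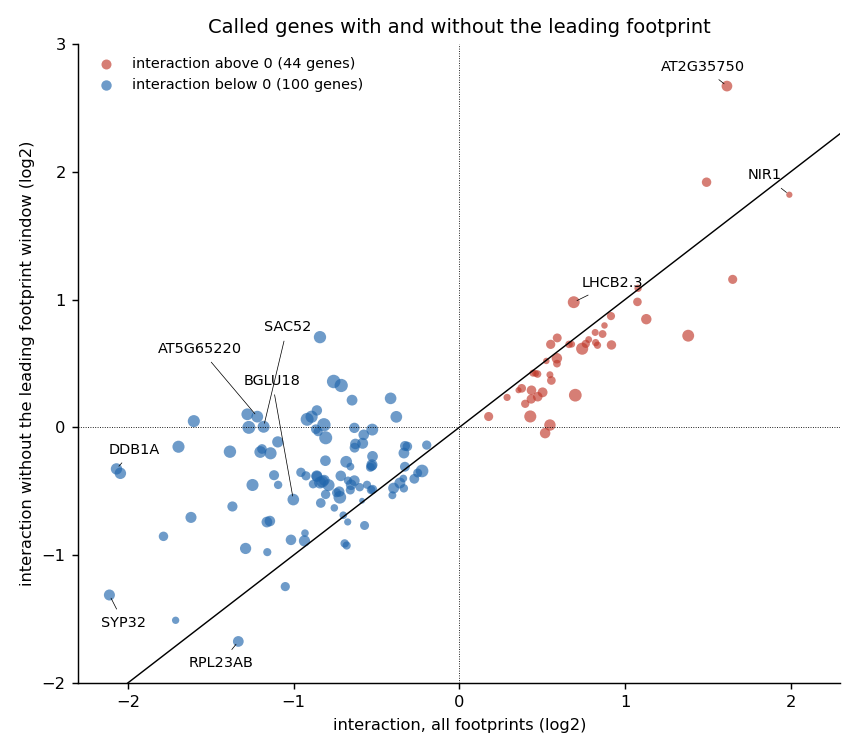
Interaction (log2) of the called genes with all footprints (horizontal axis) and with the leading window left out (vertical axis), for the 44 positive and the 100 negative genes that could be tested both ways, with point size for the share of P sites in that window. Positive genes had a median of 0.63 on both axes, but single ones moved either way, such as AT5G02960 (0.52 to -0.05) and AT2G35750 (1.61 to 2.67). Many negative genes moved towards 0 (median -0.38 on the vertical axis).

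The positive genes that stayed called were LHCB3 (0.54 without its leading window), LHCB2.1 (0.73), LHCB2.2 (0.65), LHCB2.3 (0.98), LHCB4.1 (0.42), CAB1 (0.23), PSAD-1 (0.65), GAPA (0.42), NIR1 (1.82), SAG12 (0.80), AT2G35750 (2.67), AT5G62720 (1.92), AT3G14040 (0.74), CYP71B31 (0.69), TPS10, a terpene synthase (0.52), AT3G28830, a mucin-like protein (0.66), and AT3G11630, of the thioredoxin superfamily (0.70). In the photosynthesis list 12 genes were called positive and 0 negative in this fit, and in the ribosomal protein list 0 and 2. All 17 also stayed called without the short AGAT-followed footprints.

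PSAL stood apart among the photosynthesis genes that did not. Its leading footprint, shown for its opposite pattern, lies at chr4:7521456-7521477 (plus strand), with the footprint in capitals.
PSAL: GACAAAAAGAACAATGGCAGCGagtgcatc
It was read 1088 and 1241 times in *hot3-2 dcl2 dcl4*, 183 and 184 in *dcl2 dcl4*, 843 and 662 in *hot3-2*, and 117 and 123 in WT, so that it was abundant only in the libraries carrying *hot3-2*. The footprint holds an ATG in the reading frame of the annotated coding sequence. Per the study, loss of HOT3 makes ribosomes stall at start codons. Whether translation of PSAL starts at this ATG was not tested. Without its window the interaction of PSAL was 0.22 and not called.

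Among the genes whose negative interaction stayed called without the leading window, 4 are described first, chosen after their values were seen. They stand for no list: in the cold, drought and abscisic acid list 1 of 12 genes was called positive (ERD14) and 1 negative (KIN2), with 6 above 0, and in the salicylate and defence list 0 of 7 were called, 1 at an unadjusted p under 0.05, with 5 above 0, beside 0.331% positive and 0.767% negative calls over all genes. VSP1, a vegetative storage protein induced by jasmonate, had 3464 and 3771 CPM in *hot3-2 dcl2 dcl4*, 4628 and 4589 in *dcl2 dcl4*, 4469 and 4002 in *hot3-2*, and 3648 and 3917 in WT. The *hot3-2* effect was -0.35 in *dcl2 dcl4* and 0.18 in WT plants, both called, and the interaction was -0.52 ± 0.06 (adjusted p = 6.6e-10, and -0.49 without the window). KIN2, a cold-induced protein, had 1046 and 1108 in *hot3-2 dcl2 dcl4*, 1875 and 1700 in *dcl2 dcl4*, 848 and 853 in *hot3-2*, and 843 and 1071 in WT. It was highest in *dcl2 dcl4* without overlap (-0.57 ± 0.11, and -0.77 without the window), and 35.6% of its 28 nt windows recur in AT5G15960.

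ESM1, which modifies the products of glucosinolate breakdown, had 542 and 504 CPM in *hot3-2 dcl2 dcl4*, 173 and 168 in *dcl2 dcl4*, 637 and 606 in *hot3-2*, and 115 and 137 in WT. It rose in both backgrounds, by 1.61 in *dcl2 dcl4* and 2.31 in WT plants (-0.70 ± 0.16, and -0.69 without the window). BGLU18, a β-glucosidase of endoplasmic reticulum bodies that releases abscisic acid from its glucose ester, had 1293 and 1332 in *hot3-2 dcl2 dcl4*, 1473 and 1447 in *dcl2 dcl4*, 2037 and 2519 in *hot3-2*, and 1351 and 1132 in WT. Only *hot3-2* stood above the rest (-1.0 ± 0.10). Its value was -0.57 and still called without the window of its 20 nt leading footprint, at chr1:19515569-19515588 (plus strand), which is not followed by the motif and is shown for comparison.
BGLU18: GGGATACTTTCACTAAGAAGttcccacata

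CYP89A9, a cytochrome P450 of chlorophyll breakdown, had 259 and 324 CPM in *hot3-2 dcl2 dcl4* and 389 to 497 in the other 6 libraries (-0.69 ± 0.15, and -0.91 without the window). FER1, an iron-storing ferritin, had 363 and 366 in *hot3-2 dcl2 dcl4*, 530 and 521 in *dcl2 dcl4*, 428 and 394 in *hot3-2*, and 391 and 353 in WT (-0.67 ± 0.14, and -0.74 without the window). LP1, a lipid transfer protein (-0.34), MT2A, a metallothionein (-0.27), GAPC1, a cytosolic dehydrogenase of glycolysis (-0.25), ROC5, a cyclophilin (-0.23), PGM3, a phosphoglucomutase (-0.75), PDIL1-3, a protein disulphide isomerase (-1.05), RPL23AB, a ribosomal protein (-1.33), and AT1G07930 and AT1G07940, elongation factor 1A genes that share 79.0% and 93.1% of their 28 nt windows with other genes (-0.36 and -0.40), also stayed called. AT2G07698, annotated as an ATP synthase subunit, stayed called too, but it lies in the copy of mitochondrial DNA on chromosome 2, and footprints of the 2 copies cannot be told apart.

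A few other genes of known function were called at small size. GRP7, a clock-regulated RNA-binding protein, had 5507 and 5641 CPM in *hot3-2 dcl2 dcl4*, 4399 and 4472 in *dcl2 dcl4*, 5814 and 5651 in *hot3-2*, and 5044 and 5300 in WT (0.18 ± 0.05). ACT7, an actin of vegetative and growing tissue (0.36 ± 0.09), ERD14, a dehydrin (0.40 ± 0.10), and AT1G13930, annotated as oleosin-B3-like (0.47 ± 0.10), were positive. NUC-L1, a nucleolin of ribosome biogenesis (-0.31 ± 0.08), and AT4G40040, a histone (-0.38 ± 0.09), were negative. Without its leading window ACT7, with a leading share of 6.9%, had 0.29 (adjusted p = 0.079), while GRP7 had 0.08, ERD14 0.18, AT1G13930 0.24 and NUC-L1 -0.15, and AT4G40040 turned to 0.08. None of these 6 values was called.

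In the remaining lists few or no genes were called. Trans-acting siRNA targets had 10 of 22 members tested, at a mean of 11.3 to 35.4 counts per library, and 0 called. At an unadjusted p under 0.05 there were 2 of them, both pentatricopeptide repeat genes: RPF2 had 16 and 26 counts in *hot3-2 dcl2 dcl4*, 27 and 35 in *dcl2 dcl4*, 15 and 6 in *hot3-2*, and 50 and 40 in WT (1.63 ± 0.67, adjusted p = 0.341). AT1G63080 had 15 and 13 counts in *hot3-2 dcl2 dcl4*, 24 and 31 in *dcl2 dcl4*, 4 and 6 in *hot3-2*, and 34 and 34 in WT (1.89 ± 0.86, adjusted p = 0.447). Over the list 9 of 10 interactions were above 0, with a median of 0.85 beside 0.02 for all genes. Summed over the 22 members the level was 135 and 179 CPM in *hot3-2 dcl2 dcl4*, 173 and 181 in *dcl2 dcl4*, 80.5 and 77.2 in *hot3-2*, and 125 and 121 in WT. *hot3-2* libraries were lowest and the Dicer mutants highest, but the counts are too few for single genes to be separated from the spread.

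The small RNA pathway list, which holds Argonautes, RNA-dependent RNA polymerases and their partners, had 0 of 20 called, 1 at an unadjusted p under 0.05 (HYL1, 1.82 ± 0.80) and a median of -0.06. AGO1, the main effector of microRNAs, had an interaction of -0.15 ± 0.32, and AGO2, which binds antiviral siRNAs, one of 0.65 ± 0.39. Translation initiation factors had 0 of 35 called, 6 at an unadjusted p under 0.05 and a median of -0.09, ribosome biogenesis factors 1 of 28 (NUC-L1), and heat shock proteins 0 of 93 with 8 at an unadjusted p under 0.05. Floral organ identity genes had 0 of 10 called, 2 at an unadjusted p under 0.05 and a median of 0.26. Jasmonate genes had 1 of 15 (VSP1) and glucosinolate and myrosinase genes 1 of 15 (ESM1), which like NUC-L1 were negative, beside 0.767% of all genes.

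**Figure D5:**
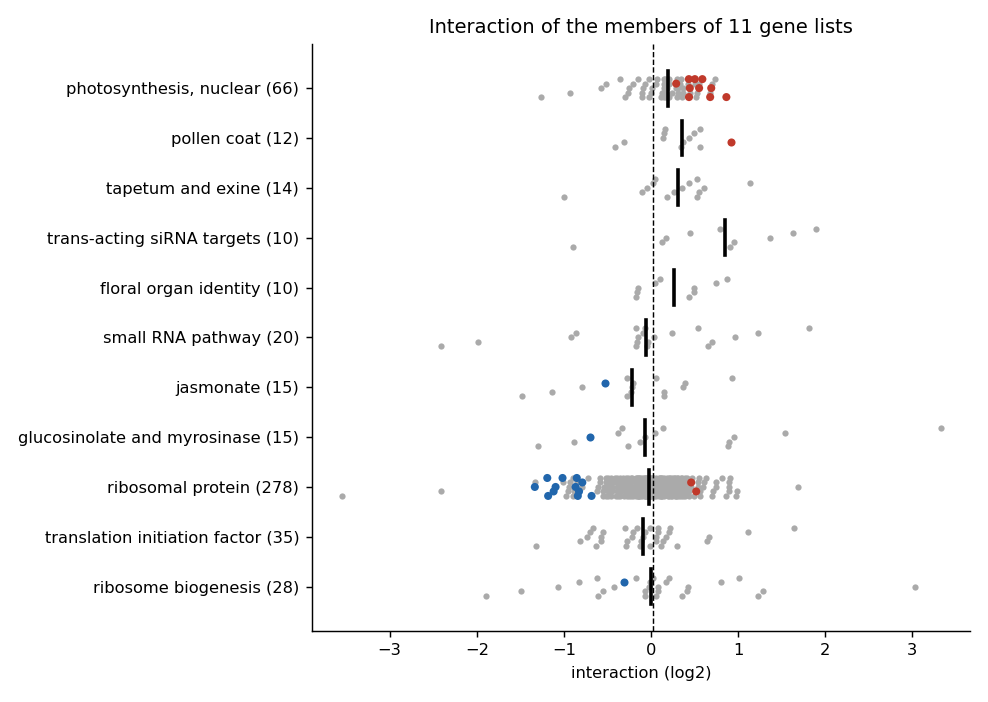
Interaction (log2, horizontal axis) of each tested member of 11 gene lists, with the number tested beside each name, a black bar at the list median and a dashed line at the median of all genes (0.02). Coloured points are called genes: 10 positive ones in photosynthesis, 2 positive and 12 negative ones in ribosomal protein, and none among trans-acting siRNA targets, whose median was 0.85.

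The called genes were highly covered and not gathered at the mutated loci. Their median count was 868 per library beside 39.1 for all genes tested. The shares of the gene lists above are set beside all genes, not beside genes of like depth. The median coding length was 798 nt for positive and 930 nt for negative genes, beside 1170 nt. Within 1 Mb of HOT3, 1 of 311 genes tested was called (0.322%), within 1 Mb of DCL2 4 of 286 (1.4%) and within 1 Mb of DCL4 3 of 275 (1.09%), beside 1.1% of all genes.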

How the data were processed

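Ribosome footprints were prepared with RNase I from inflorescence lysates. Per the study's methods, the authors trimmed reads with cutadapt, mapped them with STAR to TAIR10 and assigned P sites by footprint length. Their RiboTaper run to identify translated frames took footprints of 26 to 29 nt, whereas the main counts here hold all lengths in the files. Shorter footprints, such as those followed by AGAT, lie outside that range. The fit with 26 to 29 nt footprints called 109 genes. In the files the offset of 20 nt footprints is 9 nt in 3 libraries and 12 nt in 5. The deposited files hold 1 footprint per line with its transcript, length and distances to the start and stop codons, a unit other than a count, signal or score table. Whether PCR duplicates were removed is not given in the sources used here.

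P sites on nuclear coding sequences (start codon to stop codon) were tallied per gene, giving 1198328 to 2842475 per library. Genes with at least 10 counts relative to the median library in 2 libraries and 15 in all were kept. Library sizes were scaled with TMM factors (trimmed mean of M values) and counts were fitted with limma voom 3.58.1 (R 4.3.3), with all 4 genotypes in 1 model, the interaction as a two-sided moderated contrast, Benjamini-Hochberg adjustment over all 13303 genes and calls at an adjusted p under 0.05. The script was tested on simulated data.

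The members and lists were chosen with earlier results of these data known. Named genes were the 12 largest called interactions each way (mean of at least 20 counts, same sign in 16 of 16 library combinations), up to 4 called members of each list by p, and 5 fixed genes. Other genes in the text (SAG24, SLD1, BGLU18, PSAL, DRT112, PSBO1 and those named with a kept call or a shared sequence) were chosen after their values were seen. Alternatives covered scaling, filters, footprint lengths, codons, the replicate block, weights, thinning and each library left out. The fits without leading windows, with distinct footprints and without AGAT-followed footprints were added after seeing the data. Leading shares, sequences (nuclear sequence of TAIR10.1, the same as TAIR10) and shared 28 nt windows came from the files and the RefSeq annotation. Footprints mapping to organelles were left out.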

Additional observations from a re-analysis of the deposited data

Results flagged for a closer look

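All 146 genes called for the interaction are results in which the *hot3-2* effect differed between *dcl2 dcl4* and WT plants by a test of that difference. Among the 47 called genes taken by the naming rule of the methods the positive differences were NIR1 1.99, AT4G20420 1.65, AT2G35750 1.61, AT5G62720 1.49, PRE1 1.38, AT5G15110 1.13, GLP8 1.08, GPAT1 1.07, GRP20 0.92, AT1G29140 0.91, SAG12 0.88, LHCB2.1 0.86, AT3G14040 0.82, CYP71B31 0.78, AT5G07410 0.76, LHCB2.2 0.68, LHCB3 0.59, AT3G07850 0.59, XTH24 0.55, AT1G13930 0.47, LHCB4.1 0.44, ERD14 0.40, ACT7 0.36 and GRP7 0.18.

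The negative differences were SLY2 -2.43, SYP32 -2.11, DDB1A -2.07, CYP96A10 -2.05, EIL3 -1.79, AT4G21570 -1.71, AT3G15900 -1.70, ASPGA1 -1.62, AT2G27315 -1.60, AT3G61560 -1.60, AT3G54440 -1.39, maMYB -1.37, SAC52 -1.18, AT5G59850 -1.10, PGY2 -0.87, AT1G33120 -0.85, ESM1 -0.70, CYP89A9 -0.69, KIN2 -0.57, VSP1 -0.52, AT4G40040 -0.38, LP1 -0.34 and NUC-L1 -0.31.

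In the fit without the leading footprint, which tested 45 of these genes, 10 of the 24 positive and 5 of the 23 negative ones taken by that rule kept their call.

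AT2G01021, a transcript left out of the counts above, took 25.6% and 23.1% of all footprints in *hot3-2 dcl2 dcl4*, 14.3% and 14.4% in *dcl2 dcl4*, 13.5% and 16.3% in *hot3-2*, and 10.4% and 16.8% in WT. Both triple mutant libraries were above every other library.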

How the results depend on the processing

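The count of 146 genes was within 1.5 times under the other scaling (144), without a filter on low counts (101), with a filter at a mean of 50 counts (148), with 26 to 29 nt footprints (109), without the first 15 and last 5 codons (150), with limma-trend (101), with sample quality weights (156), after thinning to the smallest library (136) and without AGAT-followed short footprints (130). It was 71 with 28 nt footprints alone, 64 without the leading footprint, 18 with distinct footprints and 27 at an adjusted p under 0.01 with an absolute interaction of at least 1. Without the first 15 and last 5 codons, start codon included, 123 of the 146 genes were still called. Positive genes were 30.1% of the calls, 40.6% without the leading footprint and 55.6% with distinct footprints. Leaving out 1 library in turn gave 92 to 162 genes. With the replicate number as a block 170 genes were called, which included all 146. Differences between replicates 1 and 2 had correlations between -0.019 and 0.012 across genotypes. Many genes had low counts, where counting noise can hide a shared batch, so this check cannot exclude pairing by number.

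Some single genes changed sign, and the cause was not tested except where footprints were left out. With 28 nt footprints the values were AT3G15900 0.041, AT3G61560 0.44, maMYB 0.11, AT1G33120 0.003 and RDR1 0.21. With 26 to 29 nt they were AT3G15900 0.27, AT3G61560 0.12, maMYB 0.088 and RDR1 0.044. Without the leading footprint they were AT3G61560 0.048, SAC52 0.004, AT4G40040 0.082 and AT1G21160 0.018. With distinct footprints they were AT5G59850 0.025, AT4G40040 0.045, ACT7 -0.059, AT1G21160 0.38 and RDR1 0.021. Without AGAT-followed short footprints they were AT3G15900 0.23, AT3G61560 0.045, maMYB 0.082, PGY2 0.005 and AT1G21160 0.05. RDR1 was 0.012 without the first 15 and last 5 codons. With 1 library left out, AT1G21160 lay between -0.466 and 0.159 and RDR1 between -0.447 and 0.221. All other genes taken by the naming rule kept their sign in every fit that could be made. Of genes named besides, SLD1 (0.083), AT5G65220 (0.083), DRT112 (0.226) and AT5G02960 (-0.046) changed sign without the leading footprint, SLD1 (0.099), AT5G65220 (0.136), SAG24 (0.106), PSBO1 (0.125) and AT3G24830 (-0.06) with distinct footprints, and AT5G65220 (0.077) without AGAT-followed short footprints.

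Of the 47 called genes taken by the rule, calls were lost with the sign kept for 27 with 28 nt footprints, 16 with 26 to 29 nt, 18 without a filter, 6 with the filter at 50 counts, 13 with limma-trend, 9 after thinning, 7 without the end codons, 2 with the other scaling, 27 without the leading footprint, 37 with distinct footprints, 7 without AGAT-followed short footprints and 8 to 23 with 1 library left out. None was lost with the replicate block or quality weights.

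With 2 libraries per genotype and no total RNA, depth limits genes of low count: the median tested gene had 39.1 counts per library.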
